A study of Mus musculus with 15 samples.

Results

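The 7 podocyte genes Nphs1, Podxl, Synpo, Wt1, Ptpro, Cdkn1c and Clic5 were followed through the 15 RNA-Seq libraries of the series. They were picked by gene symbol, with no threshold on their values, and make up 7 of the 47069 genes in the deposited table. By its title, the series addresses how far markers of single cell types are represented when the whole organ is sequenced. All libraries came from male C57BL/6 mice aged 2 months, and the labels name no treatment, transgene or deletion for any group. Of these libraries, 12 were made from single microdissected proximal tubules labelled PTS2, in sets m1, m2 and m3 of 4 replicates each, and 3 were made from whole kidney. The labels do not say what the letter m stands for or whether libraries of a set share an animal, so p-values measure the spread between these libraries, which may be partly technical.

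Podocytes are the epithelial cells that wrap the capillaries of the glomerulus, the filter at the head of each nephron. Their interlocking foot processes are bridged by the slit diaphragm, carry a charged surface coat and are held in shape by an actin skeleton. Whole kidney contains glomeruli, whereas the proximal tubule begins only after the glomerulus, so podocytes lie outside the segment that PTS2, the S2 part of the proximal tubule, names. Several genes used as podocyte markers are also known from other cells: podocalyxin coats vascular endothelium, and CLIC5 occurs in microvilli of other tissues.

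Values are TPM, which are scaled to transcript length and to the same total in every library. They allow levels of different genes to be set side by side, but keep no record of depth, so no counting error can be given and a value of 0 is reported only as listed. The dissected libraries carried the defining genes of proximal tubule: all 8 proximal genes examined were listed above 0 in all 12 libraries, from 73.7% (Slc34a1) to 233% (Slc7a13) of their whole kidney means, and Slc27a2 was the highest of them, at 9166 TPM. Of 4 genes of the earlier S1 segment, Slc5a12 was at 0.0864%, Slc5a2 at 0.112%, Gatm at 0.283% and Slc2a2 at 41.7%. Replicate 3 of set m3 stood apart through genes of the thick ascending limb, a later nephron segment. Its 5-gene sum was 1441 TPM, where the other 11 tubules had at most 55.8 TPM and the kidney mean was 2569 TPM. Some results, but not all, are given both with and without this library. Over the 12 tubules the 5-gene sum was at 5.33% of its kidney mean with m3 replicate 3 and 0.712% without it; Umod was at 5.91% with it and 0.798% without, Slc12a1 at 4.19% and 0.456%, and Kcnj1 at 1.75% and 0.251%.

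The 7 genes split into 6 that were close to the bottom of the scale in tubules and 1, Clic5, that was not. For every one of the 7, each PTS2 library lay below each kidney library. Of the 13334 genes with a whole kidney mean of at least 1 TPM, 37.5% met the same condition, and of the 12039 genes that passed the filter used for testing, 32% did. The PTS2 mean stood at 0.129% of the kidney mean for Nphs1, 0.809% for Cdkn1c, 2.48% for Synpo, 3.49% for Ptpro, 4.19% for Wt1, 4.69% for Podxl and 53.7% for Clic5. Over those 13334 genes the median was 77.2%, and 10.5% of the genes lay below 10%. In bulk tissue, fewer cells of a type and less RNA per cell cannot be told apart.

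**Figure D1:**
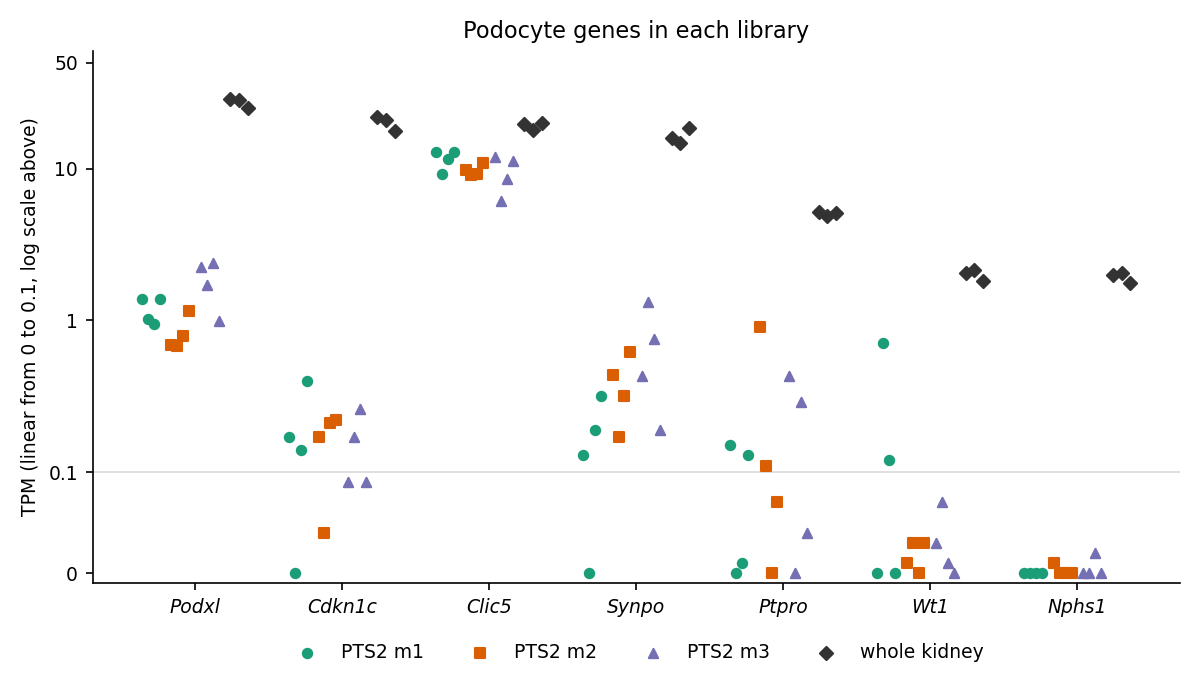
TPM of the 7 podocyte genes in each library; points are libraries, coloured by group (4 per PTS2 set, 3 of whole kidney), on an axis that is linear from 0 to 0.1 TPM and logarithmic above. Kidney points lie above all tubule points for each gene, Clic5 is near 10 TPM in tubules, and Nphs1 is listed at 0 in 10 of 12 tubules.

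Nphs1 (ENSMUSG00000006649, chromosome 7, 30458315 to 30487223, plus strand) encodes nephrin, the adhesion protein that spans the slit diaphragm. In whole kidney it was at 1.99, 2.04 and 1.77 TPM in replicates 1, 2 and 3. In PTS2 it was listed at 0 in 10 of 12 libraries, with 0.01 TPM in m2 replicate 1 and 0.02 TPM in m3 replicate 3. Those values are at the last decimal that the table gives. The groups did not overlap, and the tubule mean fell from 0.129% to 0.0470% of the kidney mean without m3 replicate 3. Nphs1 did not reach the filter used for testing, which required an average of 1 TPM or more across all 15 libraries. When every gene was fitted, its log2 difference, PTS2 minus kidney, was -1.55 ± 0.03 (SE, limma adjusted p = 2.47e-14), on a log2(TPM + 1) scale that understates the change of genes this low. The annotated antisense gene Nphs1os overlaps its exons and was at 0.020 TPM in kidney, and the pseudogene Rps12-ps4, not used here, overlaps them too; whether the counting used strand is not given in the sources used here.

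Podxl (ENSMUSG00000025608, chromosome 6, 31519488 to 31563981, minus strand) encodes podocalyxin, the sialylated mucin of the podocyte surface. It was the highest of the 7 in whole kidney, at 28.75, 28.49 and 25.02 TPM. In tubules it ran from 0.68 TPM in m2 replicate 2 to 2.39 TPM in m3 replicate 3, with a median of 1.09 TPM. No tubule library listed it at 0, which among the 7 was otherwise true only of Clic5. The mean was 1.29 ± 0.575 TPM (SD, n = 12) against 27.4 ± 2.08 TPM (SD, n = 3), and the log2 difference was -3.67 ± 0.20 (SE, limma adjusted p = 1.3e-10).

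Synpo (ENSMUSG00000043079, chromosome 18, minus strand) encodes synaptopodin, an actin-associated protein of the foot processes. Whole kidney had 15.95, 14.69 and 18.56 TPM. In tubules it was listed at 0 in m1 replicate 2, had a median of 0.32 TPM and reached 1.32 TPM in m3 replicate 2. The log2 difference was -3.66 ± 0.20 (SE, limma adjusted p = 1.59e-10). On the plain TPM scale the Synpo mean was 40.3-fold lower in tubules and the Podxl mean 21.3-fold lower. Without m3 replicate 2 the tubule mean was 1.97% of the kidney mean.

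Ptpro (ENSMUSG00000030223, chromosome 6, 137252319 to 137463233, plus strand) encodes GLEPP1, a receptor tyrosine phosphatase of the podocyte's apical membrane. The 3 kidney libraries were close together, at 5.22, 4.90 and 5.12 TPM. Of the tubules, 3 listed it at 0, the median was 0.090 TPM, and m2 replicate 1 was highest at 0.90 TPM. The log2 difference was -2.39 ± 0.18 (SE, limma adjusted p = 9.74e-09). The tubule mean depended on that highest library, and without it was 2.20% of the kidney mean in place of 3.49%.

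Wt1 (ENSMUSG00000016458, chromosome 2, 105126529 to 105173616, plus strand) encodes the zinc finger transcription factor that podocytes need in development and keep in the adult. It was low even in whole kidney, at 2.04, 2.16 and 1.82 TPM. In tubules it was listed at 0 in 4 libraries, had a median of 0.020 TPM, and reached 0.71 TPM in m1 replicate 2, where the next highest library had 0.12 TPM. That library supplied most of the tubule mean: with it the mean was 4.19% of the kidney mean, and without it 1.36%. Wt1 was also under the filter, and with no filter its log2 difference was -1.49 ± 0.13 (SE, limma adjusted p = 2.19e-07).

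Cdkn1c (ENSMUSG00000037664, chromosome 7, 143458339 to 143461050, minus strand) encodes p57, an imprinted inhibitor of cyclin-dependent kinases that marks podocytes after they leave the cell cycle. Kidney libraries had 21.82, 21.07 and 17.65 TPM, second only to Podxl among the 7. Tubules had a median of 0.17 TPM, from a listed 0 in m1 replicate 2 to 0.40 TPM in m1 replicate 4. Podxl and Cdkn1c were thus neighbours in kidney, at means of 27.4 and 20.2 TPM, whereas in tubules the means were 1.29 TPM for Podxl and 0.163 TPM for Cdkn1c. Its log2 difference was -4.19 ± 0.12 (SE, limma adjusted p = 3.57e-14). Exons of the annotated antisense gene Gm44732, not used here, overlap those of Cdkn1c, so reads could be shared between them.

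Clic5 (ENSMUSG00000023959, chromosome 17, 44188584 to 44280172, plus strand) encodes a chloride intracellular channel protein found with ezrin at the podocyte's apical membrane. Kidney libraries had 19.74, 17.90 and 19.95 TPM. Tubules had a median of 10.4 TPM, from 6.13 TPM in m3 replicate 2 to 12.95 TPM in m1 replicate 1, so that the highest tubule was still below the lowest kidney library. The means were 10.3 ± 1.98 TPM (SD, n = 12) and 19.2 ± 1.13 TPM (SD, n = 3), and the log2 difference was -0.86 ± 0.16 (SE, limma adjusted p = 0.000347). The median over all 12039 genes tested was itself -0.27, and with rescaling to a median near 0 (median of ratios) the Clic5 difference was -0.58 (limma adjusted p = 0.00502). Clic5 was 82.9% of the summed TPM of the 7 genes in tubules and 20.8% in whole kidney.

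Podxl was the next least reduced of the 7, and the pair is described by its ratio without a test, because the genes were picked for this difference. The log2 ratio of Clic5 to Podxl was 3.10 ± 0.69 (SD, n = 12) in tubules, from 1.83 to 3.83. In whole kidney it was -0.51 ± 0.17 (SD, n = 3), from -0.67 to -0.33, so Clic5 was above Podxl in 12 of 12 tubules and below it in 3 of 3 kidneys.

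In the test of all genes, 5 of the 7 genes were tested and 5 were called lower; Synpo, Ptpro and Cdkn1c passed it only through their kidney values. Their calls can be read only against a background in which 41.5% of the 12039 genes tested were called lower in PTS2, 9.68% higher and 51.2% in either direction. Of all calls, 18.9% were higher in PTS2 on deposited TPM, 49.7% with median-of-ratios rescaling and 64.4% with quantile normalization; genes called lower were then 23.8% and 18.8% of those tested. With no filter, 7 of 7 were called lower, where 26.9% of 30969 genes were called lower and 3.47% higher. The log2(TPM + 1) scale understates the differences of genes near 0 in tubules: with a pseudocount of 0.1 in place of 1 they were -4.41 for Podxl, -5.32 for Synpo, -4.64 for Ptpro, -6.38 for Cdkn1c and -0.92 for Clic5. The plot of log2 differences under 3 scalings shows that each of the 5 tested genes stayed below 0 in all of them.

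**Figure D2:**
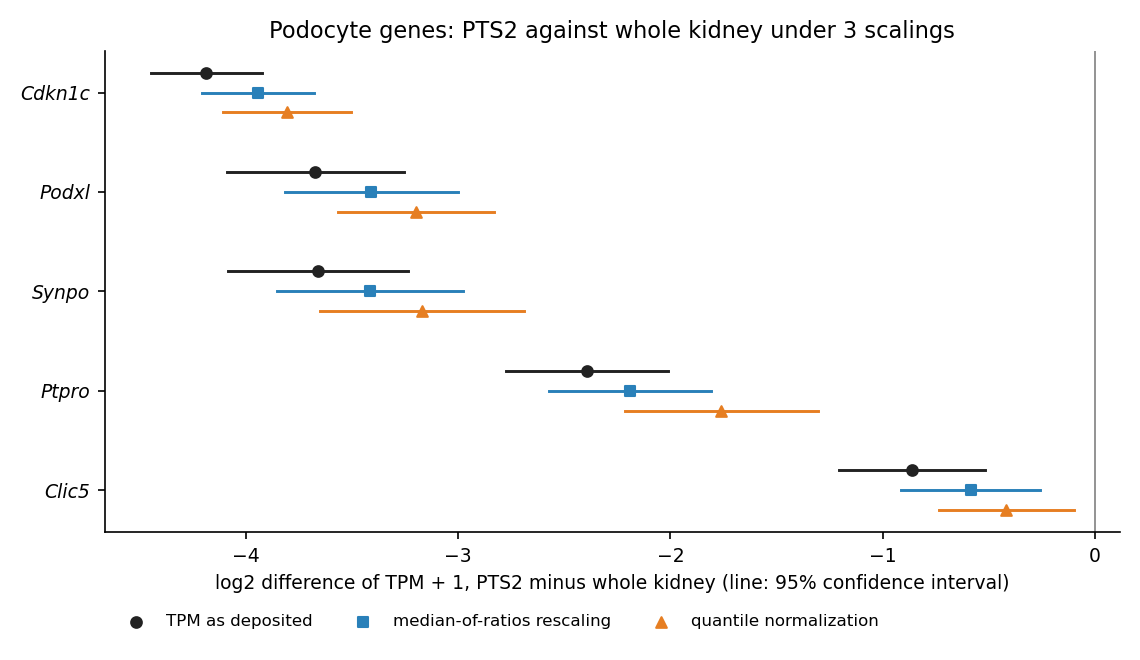
Log2 difference of TPM + 1, PTS2 minus whole kidney, with 95% confidence intervals from limma, for the 5 podocyte genes that passed the filter, on deposited TPM and after 2 rescalings. All intervals lie below 0, and Clic5 is nearest to 0, at -0.86, -0.58 and -0.42.

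Promoter sequence was available in RefSeq (GRCm38.p6) for 3 of the 7 genes, Ptpro, Clic5 and Nphs1. The 250 bases before the start of Ptpro, at 3.49% of its kidney level in tubules, and of Clic5, at 53.7%, are shown to set the least reduced of the 7 genes beside one of the strongly reduced; they are at chr6:137252049-137252298 and chr17:44188322-44188571, both on the plus strand, outside annotated exons, with CpG dinucleotides in capitals.
Ptpro: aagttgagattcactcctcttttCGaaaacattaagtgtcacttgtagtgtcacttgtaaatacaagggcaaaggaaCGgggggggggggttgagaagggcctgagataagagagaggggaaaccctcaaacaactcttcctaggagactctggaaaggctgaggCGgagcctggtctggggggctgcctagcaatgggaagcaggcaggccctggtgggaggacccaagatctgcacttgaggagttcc
Clic5: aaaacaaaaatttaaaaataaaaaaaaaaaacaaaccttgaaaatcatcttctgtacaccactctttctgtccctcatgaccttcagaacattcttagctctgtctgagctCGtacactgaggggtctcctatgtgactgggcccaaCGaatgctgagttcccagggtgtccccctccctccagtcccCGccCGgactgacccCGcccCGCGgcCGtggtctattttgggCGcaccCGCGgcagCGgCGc

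Ptpro had 3 CpG and Clic5 had 13, and the median of 32851 such windows was 6. Their GC content was similar, at 53.6% and 52.8%. The Nphs1 window, chr7:30459808-30460057 on the plus strand, lies wholly within an untranslated exon of another annotated Nphs1 transcript and is not printed; purines made up 77.2% of it, a share reached by 0.0731% of all windows. Neither a WT1/EGR-type site (GCGNGGGNG), nor the only E-box form searched (CAGCTG), nor a TATA box (TATAAA) was found on either strand of the 3 windows. Those letters occur in 10.5%, 13.0% and 12.4% of all windows, so their absence from 3 windows says nothing of the factors.

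In whole kidney the order of levels was Podxl, Cdkn1c, Clic5, Synpo, Ptpro, Wt1 and Nphs1. Ranges of neighbours overlapped for Cdkn1c and Clic5, for Clic5 and Synpo, and for Wt1 and Nphs1, so these pairs are not ordered beyond their spread. In tubules the order by means was Clic5, Podxl, Synpo, Ptpro, Cdkn1c, Wt1 and Nphs1, and Clic5 and Podxl were the only neighbours whose ranges did not overlap. Ptpro was above Cdkn1c in 4 of 12 tubules, and its mean without m2 replicate 1, at 0.112 TPM, was below that of Cdkn1c.

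Among the other slit diaphragm genes, Nck1 and Nck2, adaptors that link nephrin to actin and are expressed in many cells, were at 70.1% and 98.4% of kidney. Of 9 listed genes, 7 entered the test, 3 of them only through their kidney values, and 6 were called lower. Of all genes tested, 41.5% were called lower. The median log2 difference of the 7 was -1.66, against -0.27 for all genes tested. Nck2 was not called (limma adjusted p = 0.841) and was called higher under quantile normalization.

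**Figure D3:**
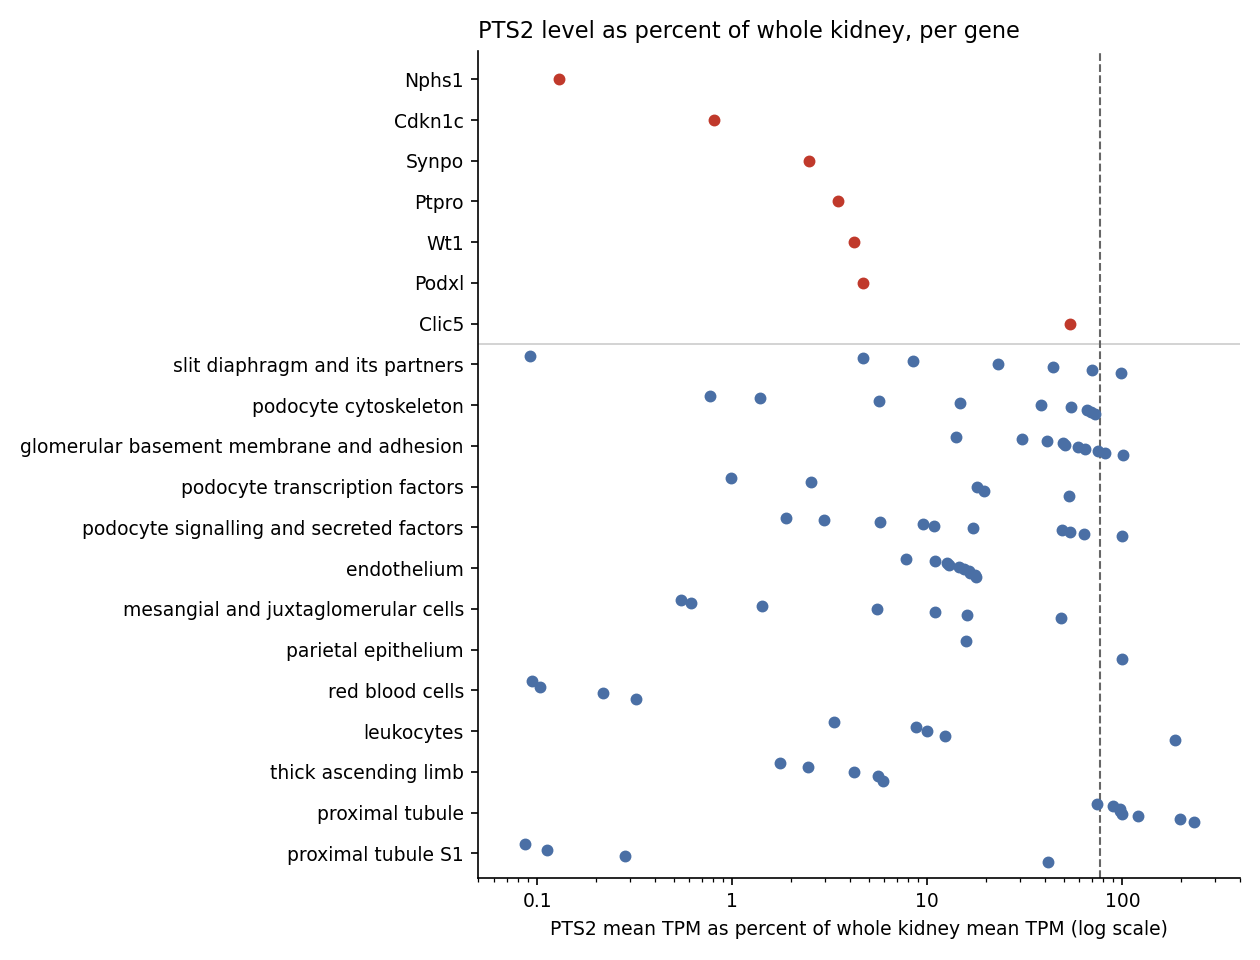
Mean TPM in PTS2 as a percent of mean TPM in whole kidney (log scale) for the 7 podocyte genes, one per row in red, and for the genes of 13 other lists with a kidney mean of at least 1 TPM in blue; the dashed line is the median of 13334 genes, 77.2%. Clic5, at 53.7%, lies far to the right of the other 6 podocyte genes, which do not pass 4.69%, and the endothelial genes lie between 7.75% and 17.8%.

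Among 11 genes of the podocyte cytoskeleton, 7 were tested, 1 of them only through its kidney values, and 4 did not reach the filter. The 7 were called lower (median log2 difference -0.89), as were 5 of 7 with median-of-ratios rescaling and 10 of 11 with no filter. Of all genes tested in these fits, 41.5%, 23.8% and 26.9% were called lower. Actn4, the actin cross-linker alpha-actinin-4, was at 54.3%, Arhgdia at 66.0% and ezrin (Ezr), which binds podocalyxin and CLIC5, at 72.5%. Ddn, which encodes dendrin, a partner of the slit diaphragm, was at 0.769% of a kidney mean of 1.52 TPM.

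The 10 genes of the glomerular basement membrane and its receptors had mostly moderate differences. Of these, 8 were called lower, with a median log2 difference of -0.84, against 41.5% of all genes tested. With median-of-ratios rescaling 6 of 10 were called lower, against 23.8% of all genes, and with quantile normalization 5 of 10, against 18.8%. Col4a3, a collagen chain of the glomerular basement membrane, was at 46.9 ± 8.63 TPM in tubules (SD, n = 12) and 46.7 ± 1.64 TPM in kidney (SD, n = 3; limma adjusted p = 0.935). Lamb2, a laminin chain of the same membrane, averaged 2.31 TPM in tubules and 16.5 TPM in kidney. The integrin gene Itgb1 was at 64.4% of kidney and Npnt, which encodes an integrin ligand, at 50.9%.

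Transcription factors and secreted factors showed both patterns. Tcf21 was at 2.55% of a kidney mean of 19.6 TPM and Foxc2 at 0.980% of 1.70 TPM (0.374% without m3 replicate 3), whereas Foxc1 was at 53.1%. Of 6 transcription factors 3 reached the filter, Tcf21 only through its kidney values. The 3 were called lower, against 41.5% of all genes tested, with a median log2 difference of -2.05. With median-of-ratios rescaling 2 were called lower, against 23.8% of all genes, and with quantile normalization 2, against 18.8%. With no filter 5 of 6 were, against 26.9%. Vegfa, the growth factor that podocytes supply to glomerular endothelium, was at 54.2% and the sulfatase Sulf1 at 1.89%. Rhpn1 averaged 23.1 TPM in both tissues (limma adjusted p = 0.935). Of 10 signalling genes 4 reached the filter and 3 were called lower, as were 9 of 10 with no filter. The shares over all genes in these fits were again 41.5% and 26.9%. Under quantile normalization Rhpn1 was called higher. Over these 5 podocyte lists, 41 of 46 genes had a kidney mean of at least 1 TPM; 12 of the 41 (29.3%) were below 10% of kidney, against 10.5% of all genes at that kidney level, and 16 (39.0%) at or above 50%, against 74.4%.

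Markers of other cell types did not all follow the podocyte genes. Each of 10 endothelial genes was lower in every tubule library than in every kidney library. The same condition held for 37.5% of genes with a kidney mean of at least 1 TPM. None of the 10 was listed at 0. They kept 7.75% (Ehd3) to 17.8% (Plvap) of their kidney level, with Emcn at 12.9%. The 6 podocyte genes other than Clic5 all lay below that range. Whether the endothelial values came from glomerular or from other vessels was not tested. Of 7 mesangial and juxtaglomerular genes, Ren1, which encodes renin, was at 0.544% of kidney, and the angiotensin receptor gene Agtr1a at 48.4%. Of the parietal epithelial genes, Cldn1 was at 99.1% and Pax2 at 15.8%. Red blood cell globin genes were at 0.0941% (Hba-a2) to 0.322% (Hba-a1), with Hbb-bs at 0.104%. Of 5 leukocyte genes, Cd74 and Lyz2 were at 12.3% and 3.33%, whereas Csf1r was at 186%.

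The 3 tubule libraries highest for Podxl were also the 3 highest for the endothelial genes. In m3 replicates 1, 3 and 2, Podxl was at 2.26, 2.39 and 1.72 TPM, and the 10 endothelial genes summed to 118.71, 114.47 and 68.29 TPM. In m3 replicate 4, Podxl was at 0.99 TPM and the endothelial sum at 30.5 TPM, the lowest of the 12. Over all tubules that sum ran from 30.5 to 118.71 TPM, and over kidneys from 384 to 408 TPM. Clic5 did not follow this order, at 11.88, 8.59, 6.13 and 11.32 TPM in m3 replicates 1, 3, 2 and 4. The part of endothelial RNA in the Podxl values was not tested.

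**Figure D4:**
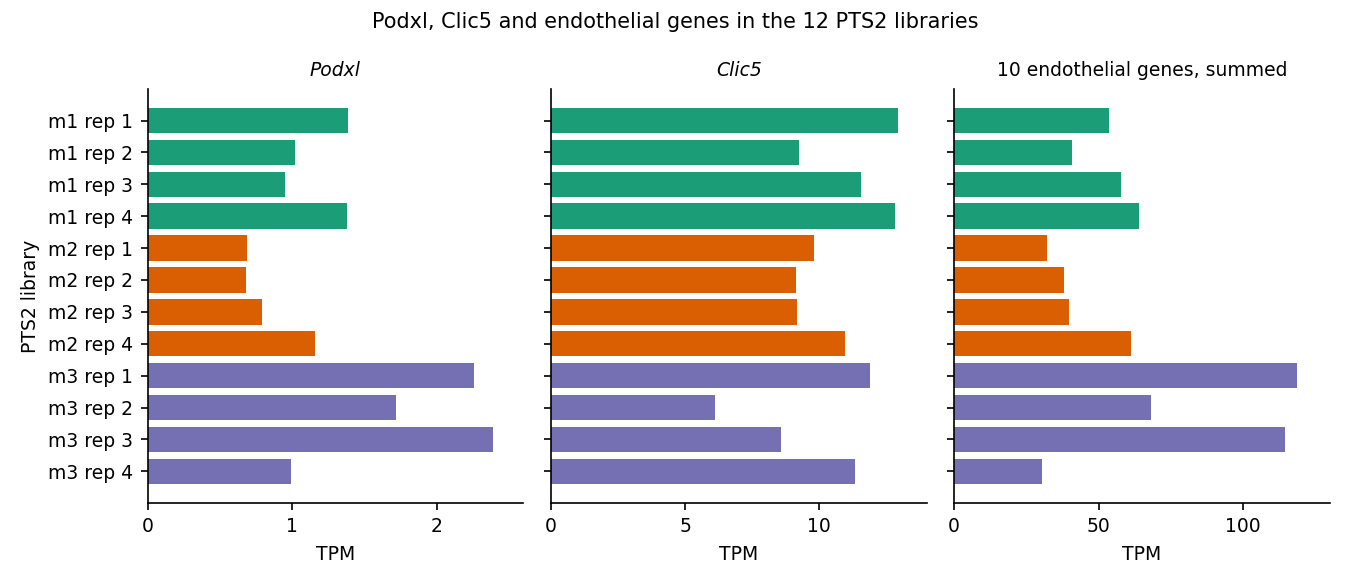
TPM of Podxl, of Clic5 and of 10 endothelial genes summed, as bars from 0 for each of the 12 PTS2 libraries, coloured by set. The bars for Podxl and for the endothelial sum are longest in m3 replicates 1 and 3, while the longest Clic5 bar, 12.95 TPM, is in m1 replicate 1.

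The 3 tubule sets were compared for the same genes. With the filter at a mean of 1 TPM over the 12 tubules, Podxl and Clic5 could be tested, and by limma's F test 0 of 2 passed, where 3.02% of 11300 genes did; 1 of 2, Podxl, had an unadjusted p under 0.05. The Podxl levels were 1.19 ± 0.233 TPM for set m1, 0.83 ± 0.226 TPM for set m2 and 1.84 ± 0.637 TPM for set m3 (SD over 4 libraries per set; limma adjusted p = 0.225). Clic5 was at 11.7 ± 1.72, 9.77 ± 0.858 and 9.48 ± 2.66 TPM (SD, n = 4 each; limma adjusted p = 0.578). With no filter, 0 of 7 passed, 1 of 7 had an unadjusted p under 0.05, and 0.65% of 30134 genes passed.

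The summed TPM of the 7 genes was 12.4 ± 1.93 TPM (SD, n = 12) in tubules, or 13.5% of the 92.2 ± 2.93 TPM (SD, n = 3) of whole kidney. Without Clic5 the sums were 2.12 and 73.0 TPM, or 2.90%. The tubule sum was lowest in m3 replicate 2, at 9.41 TPM, and highest in m3 replicate 1, at 15.1 TPM. Genes whose log2(TPM + 1) followed this sum most closely over the 12 tubules were 1810034E14Rik, Frs3, Pakap, Gm43297 and Fadd, with Pearson r from 0.858 to 0.815. These are the top of 11298 genes compared over 12 libraries that share sets, and the sum they follow is mostly Clic5.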

How the data were processed

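Libraries came from cDNA made with a low-input SMART-Seq kit, per the labels' protocols. The authors deposited gene-level TPM; the submitters' processing notes name STAR 2.5.1b, RSEM 1.2.31 and build GRCm38.p5. Coordinates are from the GENCODE annotation of GRCm38. TPM keeps no depth; 10983 to 11511 genes reached 1 TPM in tubules and 13236 to 13328 in kidneys. Library groups came from the labels. Log2(TPM + 1) values entered limma 3.58.1 (R 4.3.3) for genes averaging 1 TPM or more across the libraries compared. In the test of PTS2 against kidney the tubule set was a correlated block (correlation 0.0669). The test among sets used no block and took the libraries of a set as its replicates. P-values were adjusted by Benjamini-Hochberg over all genes tested, with a threshold of 0.05. The code was tested on simulated data. The text names all 7 members, and from other lists the 2 genes with the highest kidney level and those with the lowest and highest percent of kidney; a few of these are not reported here. The members and lists were chosen with earlier results of these data known. No identical columns were found. Other pseudocounts, filters, scalings and left-out libraries were tried.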

Additional observations from a re-analysis of the deposited data

Results flagged for a closer look

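In groups of 4 tubule libraries, single values were examined for a large gap to the rest. Of 65 groups examined, 9 stood out, by a rule meant to flag about 1 in 20 groups by chance. Where 3 of 4 libraries list a gene at 0, as for Nphs1, any other value stands out. The 9 can therefore not be weighed against that rate. Among the podocyte genes, Wt1 was at 0.71 TPM in m1 replicate 2, with the nearest library of the set at 0.12 TPM. Ptpro was at 0.90 TPM in m2 replicate 1, with the nearest at 0.11 TPM. Nphs1 was at 0.01 TPM in m2 replicate 1 and 0.02 TPM in m3 replicate 3, where the other libraries of those sets listed it at 0. Wt1 and Ptpro did not stand out in the same library.

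Among summed lists, the podocyte transcription factors were low in m3 replicate 2, at 4.64 TPM with the nearest at 7.16 TPM. The leukocyte genes were high in m2 replicate 4, at 113.24 TPM with the nearest at 87.12 TPM. The thick ascending limb genes were high in m1 replicate 4, at 55.83 TPM, and in m3 replicate 3, at 1440.62 TPM. The S1 genes were high in m3 replicate 4, at 73.38 TPM with the nearest at 42.39 TPM. The part of these lists in the podocyte gene values was not tested.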

How the results depend on the processing

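All 123 values of the 7 podocyte genes under 25 alternative settings stayed lower in PTS2 with limma adjusted p under 0.05. The settings reuse the same libraries, so these are not 123 separate results. In the filtered fits Synpo, Ptpro and Cdkn1c passed only through their kidney values, which favours a lower call. Of all genes tested, 41.5% were called lower in the main fit and 26.9% with no filter. With median-of-ratios rescaling 23.8% were, and with quantile normalization 18.8%. With a filter at a mean of 10 TPM only Clic5 was still tested, and Nphs1 and Wt1 were tested only without a filter. Over all genes, 6161 were called between PTS2 and kidney, 9399 with no filter, 3113 at a mean of at least 10 TPM, and 4939 to 6668 when leaving out each library in turn. Among tubule sets, 341 genes were called, 196 with no filter, and 189 to 544 without each library in turn. Without m3 replicate 1 there were 189, without m3 replicate 3 there were 206, and without m1 replicate 1 there were 544. The summed podocyte TPM was 13.5% of kidney, 3.49% as a median over genes, 16.5% with median-of-ratios rescaling, 13.2% to 13.8% without each library, and 2.90% with Clic5 left out, an alternative chosen after seeing the data, as was a fit with no filter and without m3 replicate 3. The labels do not say that a replicate number marks shared animals or days. To look for pairing, each gene's set mean was subtracted and the remainders were correlated between libraries of different sets. These are not correlations of whole expression profiles. The remainders of the 12 same-numbered pairs all correlated positively but weakly, at 0.143 on average, from 0.0254 to 0.273. The 36 other pairs averaged -0.0481. Remainders cancel within each set, so this negative average largely follows from the positive one and is no separate evidence. As a hint of pairing from the data, not the design, the remainders of 9 of 12 libraries correlated best with their own number. With a replicate block 888 genes were called among sets. Of the 7 podocyte genes only 2, Podxl and Clic5, were tested there, and 0 were called, as without the block. From the other lists, Col4a3, Npnt, Csf1r, Slc22a6, Slc27a2 and Slc7a13 were then called. The cause of these shifts was not tested, apart from the changed number of genes tested under other filters. Depth is unknown, so TPM values near 0 have no error of their own.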

Other observations

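Csf1r, the macrophage growth factor receptor gene, was among 5 leukocyte genes the only one with a higher level in tubules than in kidney, at 39.1 ± 14.8 TPM (SD, n = 12) against 21.1 TPM; its log2 difference was 0.77 ± 0.31 (SE, limma adjusted p = 0.0481, and 0.0904 with no filter). The other leukocyte genes of the list, Ptprc, Cd74, Lyz2 and C1qa, were at 8.79%, 12.3%, 3.33% and 9.93% of kidney; Ptprc and C1qa were named after their values were seen.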
